A study of Homo sapiens with 6 samples.

Results

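The genes described here are those of the hypoxia response and of blood vessel growth: 31 were listed by symbol, and 29 of the 18132 genes measured in the series belong to the list. They were found as probe sets (groups of probes for 1 transcript) whose platform annotation gives a single gene symbol, 102 probe sets in all, and each gene's value is the mean of its probe sets. No probe set names EGLN2 alone, and CA9 was not analysed here. Of 6 Affymetrix PrimeView arrays, 3 were hybridised with RNA from cells given lentivirus with an shRNA (a short hairpin RNA that silences a gene) against SHCBP1 and 3 with RNA from cells given lentivirus with a control shRNA. The cells are labelled TPC-1, an established line from a human papillary thyroid carcinoma, but the extraction text names DLD1, a colorectal carcinoma line. The labels describe standard culture and name no low-oxygen treatment, no other shRNA against SHCBP1 and no rescue. They speak of independent samples without saying that cultures were separate, and the p-values cover no more than sample-to-sample spread within this set, part of which may be technical.

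Cells sense oxygen through HIF, a transcription factor made of an oxygen-labile alpha subunit (HIF1A or EPAS1) and a stable partner (ARNT). With oxygen present, the EGLN prolyl hydroxylases mark the alpha subunit for VHL, which directs its destruction, and HIF1AN blocks its contact with co-activators. When oxygen falls, HIF accumulates as protein and switches on genes of glycolysis, pH control, mitophagy, iron uptake and vessel growth, so the mRNA of HIF1A is not a measure of HIF activity. In solid tumours, thyroid carcinomas among them, VEGFA made by the tumour cells acts on receptors of nearby endothelial cells.

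The deposited values are log2 values with a median of 0 for every probe set across the 6 arrays, so they compare arrays but give no expression level. For that reason the presence of thyroid, colorectal or endothelial markers could not be checked. Of 7 measured thyroid markers 1 passed the test (FOXE1, 0.24 log2, higher), of 8 colorectal markers 2 did (KRT20, -1.09, lower, and CDX2, 0.12, higher), and of 8 endothelial markers 0 did by limma (adjusted p from 0.0791 to 0.699, unadjusted p under 0.05 for ESAM and TIE1). Among all genes 41% passed the same test. SHCBP1 had centred log2 values of -0.95, -0.76 and -0.72 in SHCBP1 shRNA arrays, against 0.72, 0.76 and 0.71 in control shRNA arrays, and was 2.91-fold lower (-1.54 ± 0.06 log2, SE, limma adjusted p = 1.87e-06). Poly-A spike-in RNA, added before labelling, was higher in SHCBP1 shRNA arrays by 0.43 ± 0.04 log2 (SE of the difference, n = 3 arrays per group). The control probe set for the start of ribosomal 28S RNA was higher by 2.80 log2. The contrast between the ends of a transcript, a sign of RNA quality, moved by -0.08 ± 0.02 for ACTB and -0.01 ± 0.02 for GAPDH (SE of the difference). The groups did not overlap for ACTB and did for GAPDH, and the part of these controls in the results was not tested. Every difference below is thus a gene's change against the bulk of genes, and scaling to the spike-ins lowers every one of them by that amount.

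The list split in both directions. Relative to control shRNA, 11 of the 29 genes were higher and 9 were lower at a Benjamini-Hochberg adjusted p under 0.05 in limma, a linear model fitted across all genes. Among all 18132 genes 22% were higher and 19% were lower by the same rule, 41% in all. The median difference was 0.07 log2 over the 29 genes and 0.02 over all genes, and the median absolute difference was 0.25 and 0.11. The largest differences were a fall of VEGFA, the main vessel growth factor, to a level 2.23-fold lower, and a rise of CITED2, a HIF-induced inhibitor of HIF, to a level 2.30-fold higher. In 20 genes the groups did not overlap, 11 of them higher and 9 lower, against 50% of all genes (27.3% higher and 22.7% lower). At a size of at least 0.5 on the log2 scale, 2 genes were higher (CITED2 and NRP1) and 3 were lower (VEGFA, EGLN1 and NDRG1), against 3.52% and 4.69% of all genes (8.21% in all). After spike-in scaling CITED2, NRP1 and ARNT stayed above 0 and CITED2 alone passed as higher. The other 8 called rises were then below 0, 5 of them past the threshold. All 9 falls passed as lower with that scaling too. So did the 9 genes that had missed the threshold, HIF1A, VEGFC, FLT1 and KDR among them. Of all 18132 genes, 441 then passed as higher and 16268 as lower. In bulk samples, fewer cells that express a gene and less of its RNA per cell cannot be told apart.

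**Figure D1:**
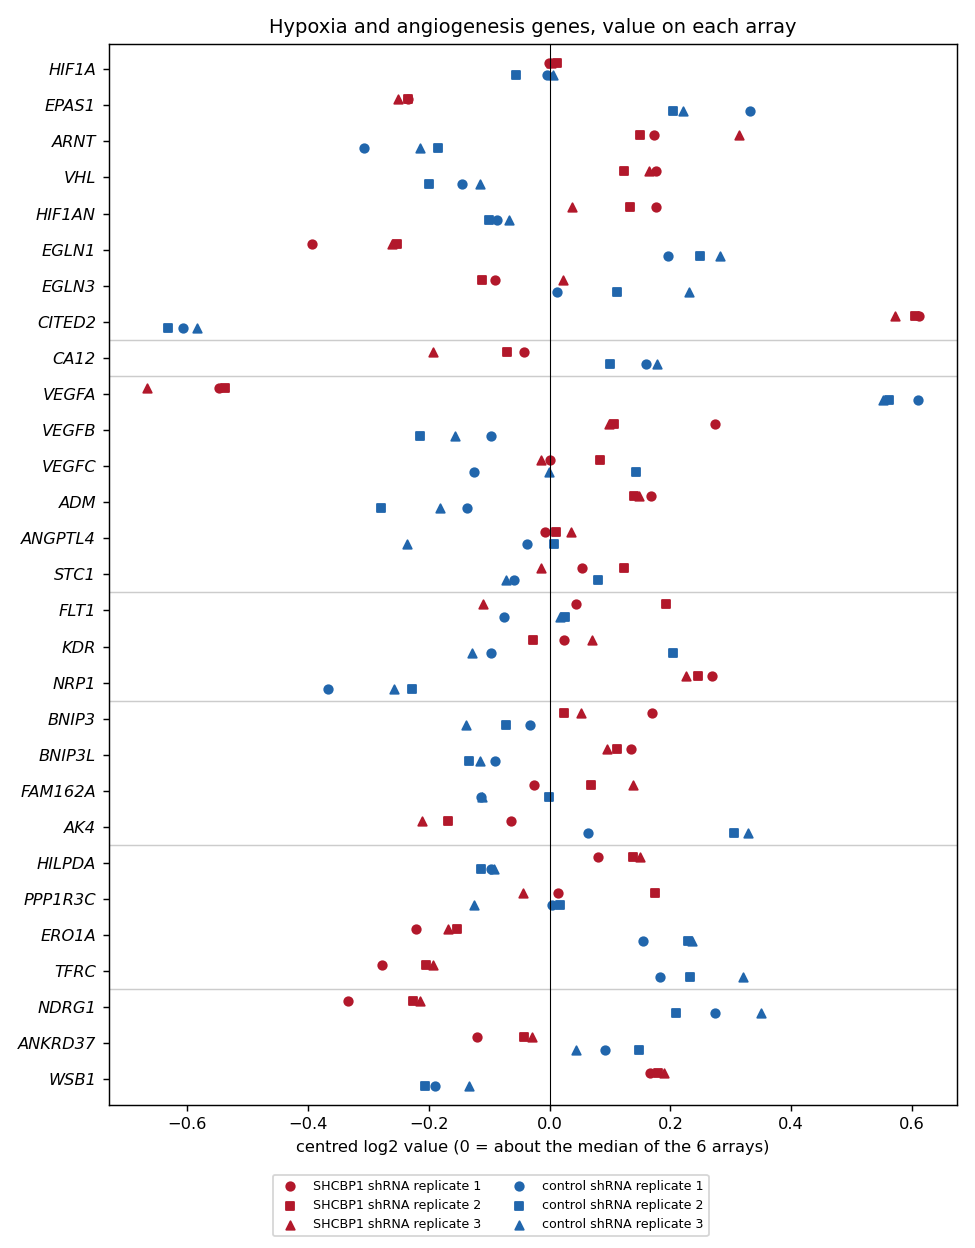
Centred log2 value (horizontal axis) of each of the 29 genes on each array, SHCBP1 shRNA in red above control shRNA in blue, with a marker shape for each replicate; grey lines part the groups of genes by role. CITED2 and VEGFA show the widest gaps between the groups, and the HIF1A, VEGFC, FLT1 and KDR values overlap.

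Among the HIF subunits, HIF1A did not pass the test, EPAS1 fell and ARNT rose. HIF1A had values of 0.00, 0.01 and 0.00 in SHCBP1 shRNA arrays, against 0.00, -0.06 and 0.01 in control shRNA arrays. The groups overlap, and the difference was 0.02 ± 0.03 log2 (SE, limma adjusted p = 0.656) with a 95% confidence interval of -0.06 to 0.10. None of its 8 probe sets passed on its own, and their differences ran from -0.10 to 0.10. ARNT had 0.17, 0.15 and 0.31 in SHCBP1 shRNA arrays, against -0.31, -0.19 and -0.21 in control shRNA arrays. Every SHCBP1 shRNA array lay above every control array, with a difference of 0.45 ± 0.06 log2 (SE, limma adjusted p = 0.000403), and all 5 probe sets were higher, by 0.29 to 0.80. With spike-in scaling the ARNT difference was 0.01 and no longer passed.

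EPAS1, the alpha subunit first known from endothelial cells, averaged over 2 probe sets that did not behave alike. Its mean values were -0.24, -0.23 and -0.25 in SHCBP1 shRNA arrays, against 0.33, 0.20 and 0.22 in control shRNA arrays, a difference of -0.49 ± 0.04 log2 (SE, limma adjusted p = 6.26e-05). One probe set read -0.47, -0.47 and -0.51 in SHCBP1 shRNA arrays, against 0.58, 0.47 and 0.57 in control shRNA arrays. The other read 0.00, 0.00 and 0.00 in SHCBP1 shRNA arrays, against 0.09, -0.06 and -0.12 in control shRNA arrays. The first was lower by 1.02 log2 on average with groups far apart, and the second differed by 0.03 with overlapping groups (limma adjusted p = 0.718), so the fall of EPAS1 rests on 1 probe set.

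Relative to other genes, those that hydroxylate or degrade the alpha subunits moved in opposite directions. EGLN1, the main prolyl hydroxylase in most cells, had -0.39, -0.25 and -0.26 in SHCBP1 shRNA arrays, against 0.20, 0.25 and 0.28 in control shRNA arrays. No values of the groups overlap, EGLN1 was 1.46-fold lower (-0.54 ± 0.05 log2, SE, limma adjusted p = 7.61e-05), and its 3 probe sets were all lower (-0.66 to -0.45). All of them have names ending in _s_at or _x_at, which Affymetrix gives to probe sets that can match other transcripts. EGLN3, a prolyl hydroxylase that is itself strongly induced by HIF, had -0.09, -0.11 and 0.02 in SHCBP1 shRNA arrays, against 0.01, 0.11 and 0.23 in control shRNA arrays. These ranges overlap and EGLN3 missed the threshold (difference -0.18 ± 0.06, SE, limma adjusted p = 0.0604). It passed as lower in 7 of 15 alternatives, among them the replicate block (limma adjusted p = 0.0219) and the fit without _s_at and _x_at probe sets (-0.40, adjusted p = 0.00334). Its probe sets went both ways: 2 passed as lower (-0.53 and -0.27) and 1 as higher (0.27). The name of that last one also ends in _s_at. VHL had 0.18, 0.12 and 0.16 in SHCBP1 shRNA arrays, against -0.14, -0.20 and -0.12 in control shRNA arrays, and both probe sets were higher. HIF1AN, the asparagine hydroxylase, had 0.18, 0.13 and 0.04 in SHCBP1 shRNA arrays, against -0.09, -0.10 and -0.07 in control shRNA arrays. Both genes rose with groups that do not overlap, VHL by 0.31 ± 0.04 log2 (SE, limma adjusted p = 0.000358) and HIF1AN by 0.20 ± 0.04 (SE, adjusted p = 0.00721). Only 1 of the 3 HIF1AN probe sets passed alone (0.29, against 0.14 and 0.17 for the others). Its plain _at probe set (0.14) did not pass in the fit of plain _at probe sets only (limma adjusted p = 0.111). The same probe set passed in the fit without _s_at and _x_at probe sets (limma adjusted p = 0.0376). With spike-in scaling VHL was at -0.13 and HIF1AN at -0.23, and both passed as lower, as did EGLN1 (-0.98) and EGLN3 (-0.61).

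CITED2 competes with the HIF alpha subunits for the co-activators EP300 and CREBBP. Its values were 0.61, 0.61 and 0.57 in SHCBP1 shRNA arrays, against -0.61, -0.63 and -0.58 in control shRNA arrays. The 3 arrays of each group lay within 0.05 of each other, and the groups lay more than 1 log2 unit apart. CITED2 rose by 1.20 ± 0.03 log2 (SE, 95% confidence interval 1.13 to 1.28, limma adjusted p = 5.57e-07), the 27th largest rise of the 18132 genes. Both probe sets showed it (1.16 and 1.25), and with spike-in scaling it was still higher by 0.77.

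**Figure D2:**
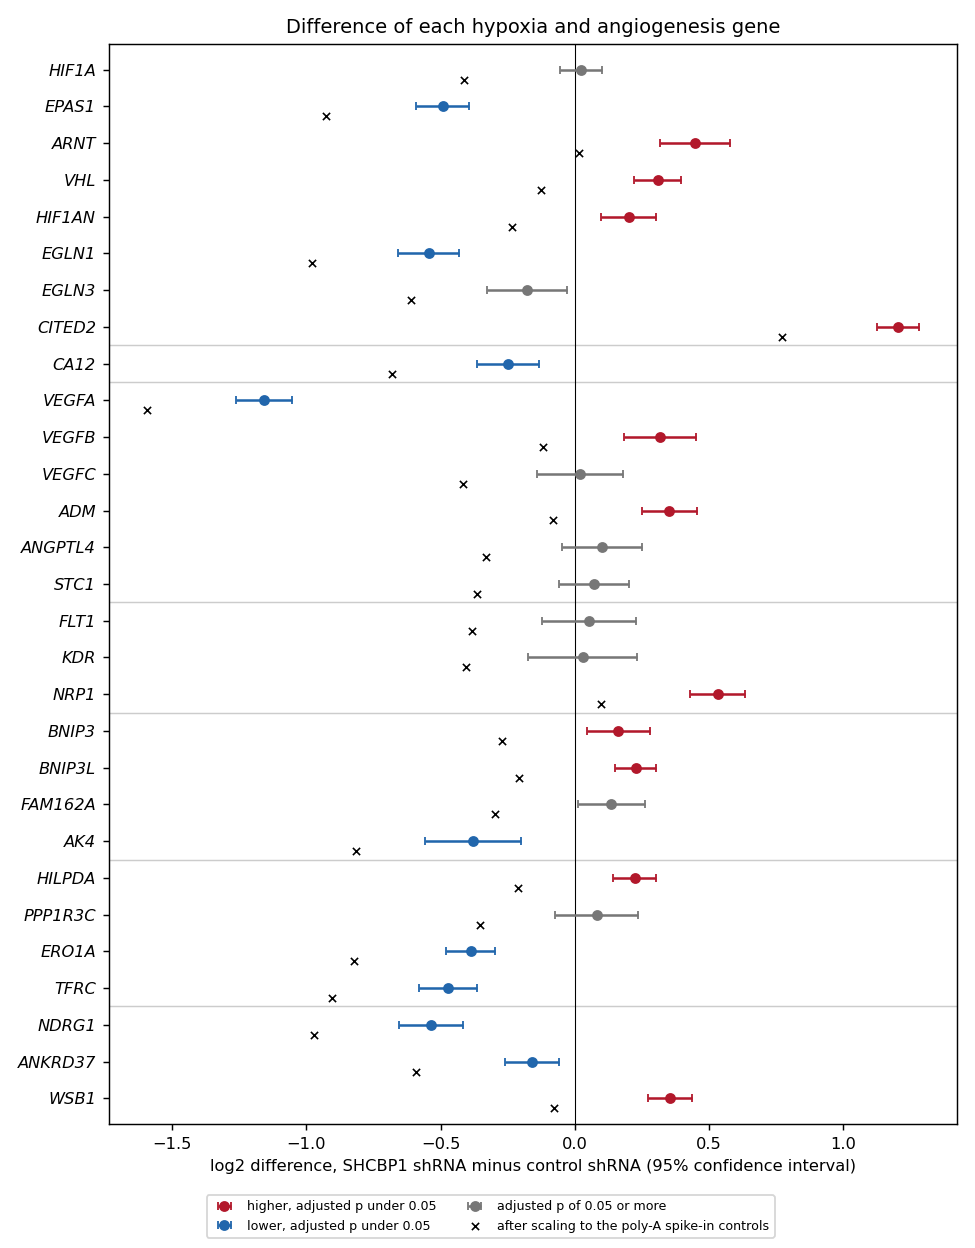
Log2 difference, SHCBP1 shRNA minus control shRNA, of each gene (horizontal axis), with dots for the estimate, bars for the limma 95% confidence interval, colours for the test's result and crosses for the difference after spike-in scaling. Of 11 red rises, 3 keep a cross above 0 (CITED2, NRP1 and ARNT), while the crosses of all 9 blue falls lie further below 0.

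Of the secreted factors, 1 fell and 2 rose out of 6, 50% in all, against 41% of all genes. VEGFA, which drives endothelial growth and permeability, had -0.55, -0.54 and -0.67 in SHCBP1 shRNA arrays, against 0.61, 0.56 and 0.55 in control shRNA arrays. Its groups lay more than 1 log2 unit apart, and it fell by 1.16 ± 0.04 log2 (SE, 95% confidence interval -1.26 to -1.05, limma adjusted p = 1.79e-06), the 104th largest fall of all genes. All 10 probe sets passed as lower, with differences from -1.61 to -0.39, so the size of the fall differed by probe set while its direction did not. Most of their names end in _s_at or _x_at. Without those probe sets the VEGFA difference was -0.98 (limma adjusted p = 2.11e-06), from probe sets at -1.50 and -0.45. VEGFB, a relative known for effects on heart muscle and lipid uptake, had 0.27, 0.11 and 0.10 in SHCBP1 shRNA arrays, against -0.10, -0.21 and -0.16 in control shRNA arrays. Its groups do not overlap, and on 1 probe set it rose by 0.32 ± 0.06 log2 (SE, limma adjusted p = 0.00308). VEGFC, the lymphatic vessel factor, had 0.00, 0.08 and -0.01 in SHCBP1 shRNA arrays, against -0.13, 0.14 and 0.00 in control shRNA arrays. The SHCBP1 shRNA values of VEGFC lie inside the control range, with a difference of 0.02 ± 0.07 log2 (SE, limma adjusted p = 0.869).

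ADM encodes adrenomedullin, a peptide that widens vessels and is commonly induced by HIF. It had 0.17, 0.14 and 0.15 in SHCBP1 shRNA arrays, against -0.14, -0.28 and -0.18 in control shRNA arrays. The groups do not overlap, and ADM rose by 0.35 ± 0.04 log2 (SE, limma adjusted p = 0.000419) with all 3 probe sets higher. VEGFA and ADM, both textbook HIF targets, thus went opposite ways relative to other genes, although ADM stood at -0.08 and VEGFB at -0.12 with spike-in scaling. The lipase inhibitor ANGPTL4 differed by 0.10 ± 0.06 log2 and the calcium-regulating glycoprotein gene STC1 by 0.07 ± 0.06 (SE, limma adjusted p = 0.263 and 0.372). Their groups overlap, and control replicate 3 alone gave ANGPTL4 a low value (-0.24).

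For the receptors of these factors, NRP1 rose and the kinases FLT1 and KDR did not pass the test. NRP1 encodes neuropilin, a co-receptor of VEGFA and of semaphorins that tumour cells carry as well as endothelial cells. It had 0.27, 0.25 and 0.23 in SHCBP1 shRNA arrays, against -0.37, -0.23 and -0.26 in control shRNA arrays. The groups lay apart, and NRP1 rose 1.45-fold (0.53 ± 0.04 log2, SE, limma adjusted p = 5.4e-05). Of its 6 probe sets 4 were higher, by 0.43 to 1.24, and 2 did not pass (0.08 and -0.06). Those 2 are the only ones with a plain _at name, and on them alone the NRP1 difference was 0.01 (limma adjusted p = 0.954). With spike-in scaling NRP1 stood at 0.10 and did not pass.

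FLT1 and KDR are the VEGF receptor kinases of endothelium. FLT1 had 0.04, 0.19 and -0.11 in SHCBP1 shRNA arrays, against -0.08, 0.03 and 0.02 in control shRNA arrays. KDR had 0.02, -0.03 and 0.07 in SHCBP1 shRNA arrays, against -0.10, 0.20 and -0.13 in control shRNA arrays. Both pairs of groups overlap, and the 95% confidence intervals of the differences ran from -0.12 to 0.23 for FLT1 and from -0.17 to 0.23 for KDR. None of their 7 probe sets passed, and since levels are missing from centred values it is unknown whether the cells express either gene.

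CA12, a membrane carbonic anhydrase that helps tumour cells export acid, had -0.04, -0.07 and -0.19 in SHCBP1 shRNA arrays, against 0.16, 0.10 and 0.18 in control shRNA arrays. It fell by 0.25 ± 0.05 log2 (SE, limma adjusted p = 0.00445) with groups that do not overlap. Of its 5 probe sets 2 passed as lower and 3 did not pass, with differences from -0.47 to -0.08. On its plain _at probe sets the difference was -0.095 and the call was lost (limma adjusted p = 0.411).

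Of 4 genes of mitochondria, 2 rose and 1 fell, 75% in all, against 41% of all genes. BNIP3L, a receptor that hands mitochondria to autophagy, had 0.13, 0.11 and 0.09 in SHCBP1 shRNA arrays, against -0.09, -0.13 and -0.12 in control shRNA arrays. Its groups do not overlap, and all 6 probe sets were higher, by 0.21 to 0.26 (gene difference 0.23 ± 0.03 log2, SE, limma adjusted p = 0.000879). Its relative BNIP3 had 0.17, 0.02 and 0.05 in SHCBP1 shRNA arrays, against -0.03, -0.07 and -0.14 in control shRNA arrays. BNIP3 rose by 0.16 ± 0.05 log2 (SE, limma adjusted p = 0.0341), but 1 of its 2 probe sets did not pass, and the call was lost without SHCBP1 shRNA replicate 1 (limma adjusted p = 0.0916), SHCBP1 shRNA replicate 3 (0.0558), control replicate 2 (0.0759) or control replicate 3 (0.106). FAM162A, a mitochondrial protein gene that HIF induces, differed by 0.14 ± 0.05 log2 with overlapping groups (SE, limma adjusted p = 0.0828), and passed only without SHCBP1 shRNA replicate 1 (difference 0.18, adjusted p = 0.035). AK4, a mitochondrial adenylate kinase, had -0.06, -0.17 and -0.21 in SHCBP1 shRNA arrays, against 0.06, 0.31 and 0.33 in control shRNA arrays. AK4 fell by 0.38 ± 0.08 log2 (SE, limma adjusted p = 0.00512), both probe sets lower, so relative to other genes the mitochondrial members did not share a direction. With spike-in scaling all 4 passed as lower, BNIP3L at -0.21, BNIP3 at -0.27, FAM162A at -0.30 and AK4 at -0.81.

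Of 4 genes of metabolism, iron and secretion, 2 fell and 1 rose, 75% in all, against 41% of all genes. TFRC, the transferrin receptor through which cells take up iron, had -0.28, -0.21 and -0.19 in SHCBP1 shRNA arrays, against 0.18, 0.23 and 0.32 in control shRNA arrays. ERO1A, the endoplasmic reticulum oxidase that feeds disulfide bond formation, had -0.22, -0.15 and -0.17 in SHCBP1 shRNA arrays, against 0.15, 0.23 and 0.24 in control shRNA arrays. In both the groups lay apart and every probe set was lower: TFRC fell by 0.47 ± 0.05 log2 and ERO1A by 0.39 ± 0.04 (SE, limma adjusted p = 0.000124 and 0.000134). HILPDA, which blocks fat breakdown in lipid droplets, had 0.08, 0.14 and 0.15 in SHCBP1 shRNA arrays, against -0.10, -0.11 and -0.09 in control shRNA arrays. It rose by 0.22 ± 0.03 log2 (SE, limma adjusted p = 0.00123) and was at -0.21 with spike-in scaling. Its 2 probe sets agreed within 0.01, but both names end in _x_at, so they can match other transcripts. PPP1R3C, which brings a phosphatase to glycogen, differed by 0.08 ± 0.07 with overlapping groups (SE, limma adjusted p = 0.387).

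NDRG1, a stress gene widely used as a hypoxia marker, had -0.33, -0.23 and -0.21 in SHCBP1 shRNA arrays, against 0.27, 0.21 and 0.35 in control shRNA arrays. Its groups lay apart and its 6 probe sets were all lower, from -0.72 to -0.30 (gene difference -0.54 ± 0.05 log2, SE, limma adjusted p = 0.000105). WSB1, which encodes a substrate receptor of a ubiquitin ligase, had 0.17, 0.18 and 0.19 in SHCBP1 shRNA arrays, against -0.19, -0.21 and -0.13 in control shRNA arrays. The WSB1 groups do not overlap and the gene rose by 0.35 ± 0.03 log2 (SE, limma adjusted p = 0.000117). Of its 7 probe sets 5 were higher, by 0.26 to 0.68, and 2 stood near 0 (-0.03 and -0.01), and with spike-in scaling the gene was at -0.08. ANKRD37, an ankyrin repeat gene that HIF induces, had -0.12, -0.04 and -0.03 in SHCBP1 shRNA arrays, against 0.09, 0.15 and 0.04 in control shRNA arrays. It fell by 0.16 ± 0.04 log2 (SE, limma adjusted p = 0.0201), but neither of its 2 probe sets passed alone, and the call was lost without SHCBP1 shRNA replicate 1 (limma adjusted p = 0.0651), control replicate 1 (0.0539) or control replicate 2 (0.0636).

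**Figure D3:**
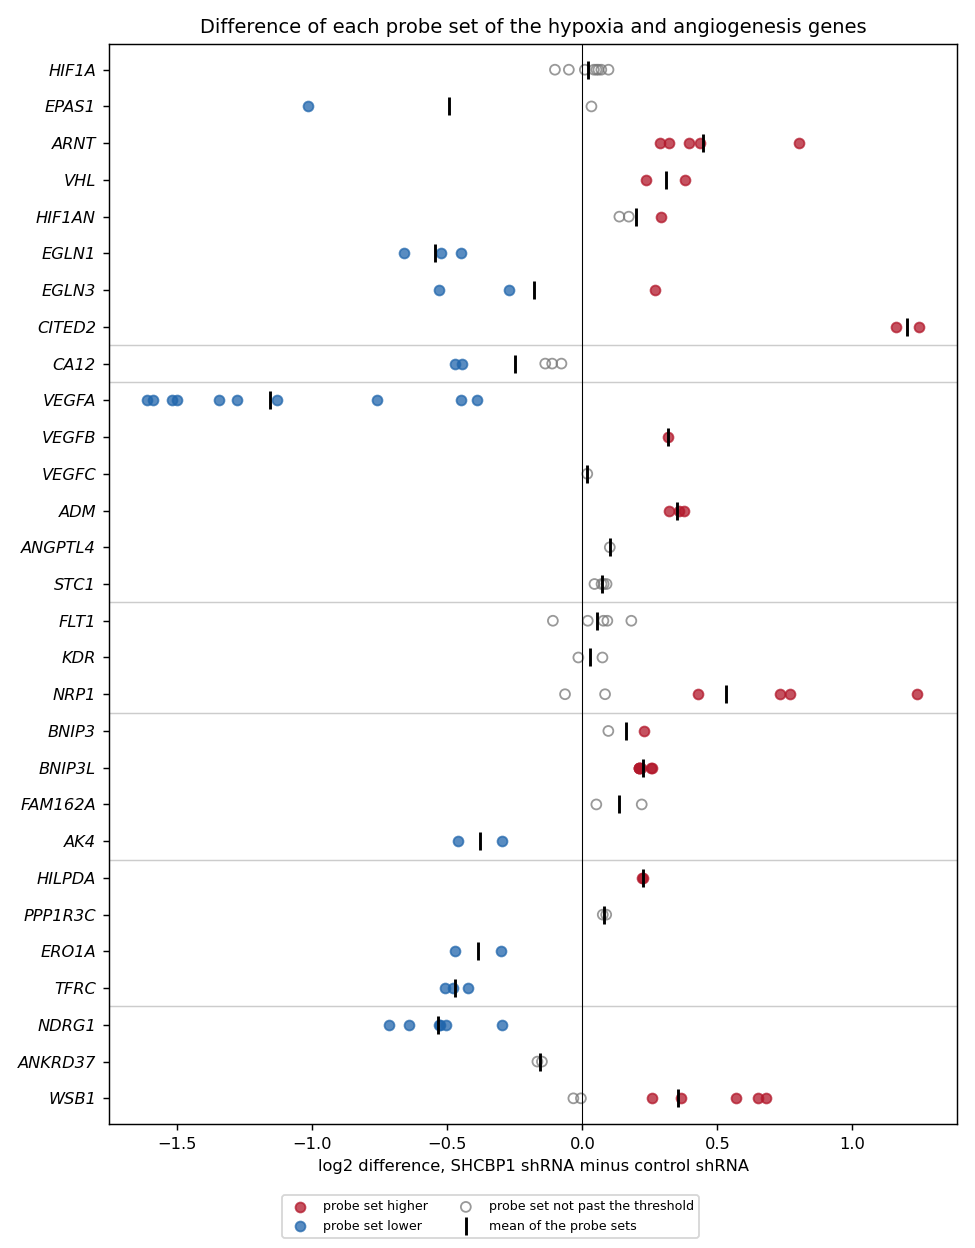
Log2 difference, SHCBP1 shRNA minus control shRNA, of each of the 102 probe sets (horizontal axis) by gene, filled where the probe set passed limma's test on its own (red higher, blue lower) and open where it did not; black ticks are the gene means. The VEGFA probe sets spread from -1.61 to -0.39, the EGLN3 probe sets fall on both sides of 0, and 1 of 2 EPAS1 probe sets sits at 0.03.

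Probe sets of a gene share its RNA and are no replicates. Of the 102 probe sets, fitted over all 49293 that are not controls, 33 were higher and 31 lower, against 19.9% and 18.1% of all probe sets (38% in all). Among the 19 called genes with more than 1 probe set, every probe set passed in the gene's direction for 12. In the other 7 (EPAS1, HIF1AN, CA12, NRP1, BNIP3, ANKRD37 and WSB1) at least 1 did not pass. The 9 genes that missed the threshold had differences from -0.18 to 0.14 log2 with standard errors of 0.03 to 0.09, and 8 of them were above 0.

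Promoter sequences of the called genes are shown because HIF binds a short core motif, ACGTG or GCGTG, and because genes that rose and genes that fell can then be read side by side. RefSeq's promoter table (GRCh38.p14, 300 bases a promoter, most of them upstream of the annotated start) held 28 promoters of 22 of the 29 genes. It held none for VEGFA, NDRG1, VHL, NRP1, BNIP3L, HILPDA and STC1. Searched on both strands, with overlapping matches counted, 23 of these 28 promoters (82.1%) held the core motif, against 48.4% of the 35116 promoters in the table. Their median GC content was 69.5%, against 58.7% in the table, and its part in the motif count was not tested. The stricter ACGTG was present in 12 of 28 (42.9%), against 21.4%. The motif stood in 7 of 9 promoters of genes that rose, in 10 of 10 of genes that fell and in 6 of 9 of genes that missed the threshold. These promoters came from 7, 7 and 8 genes, and 4 of them were of AK4, which fell, and 3 of CITED2, which rose. Median GC content was 66%, 73.5% and 68% in the same order, and differences between these sets were not tested. A match in 300 bases is no evidence of binding, and its absence says only that the letters are not in this window. The sequences below run 5′ to 3′ on the strand of the gene, with core motifs of either strand in capitals, and give the 3 largest falls and then the 3 largest rises among called genes with a promoter that could be shown. For CITED2, which has 3 promoters in the table, the one listed first is given.
EGLN1 (chr1:231422238-231422537, minus strand): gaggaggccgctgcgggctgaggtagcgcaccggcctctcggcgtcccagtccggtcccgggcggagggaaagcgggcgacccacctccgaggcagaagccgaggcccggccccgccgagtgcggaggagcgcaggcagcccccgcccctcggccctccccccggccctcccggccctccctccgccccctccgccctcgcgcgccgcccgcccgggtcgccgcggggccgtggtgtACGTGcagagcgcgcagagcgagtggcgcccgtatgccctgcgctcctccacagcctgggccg
EPAS1 (chr2:46297157-46297456, plus strand): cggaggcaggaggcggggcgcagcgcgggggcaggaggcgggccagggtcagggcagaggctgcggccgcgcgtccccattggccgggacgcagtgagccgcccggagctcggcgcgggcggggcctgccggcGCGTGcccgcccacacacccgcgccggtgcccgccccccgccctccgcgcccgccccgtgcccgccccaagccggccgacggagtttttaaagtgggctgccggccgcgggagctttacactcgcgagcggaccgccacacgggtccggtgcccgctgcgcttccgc
TFRC (chr3:196082041-196082340, minus strand): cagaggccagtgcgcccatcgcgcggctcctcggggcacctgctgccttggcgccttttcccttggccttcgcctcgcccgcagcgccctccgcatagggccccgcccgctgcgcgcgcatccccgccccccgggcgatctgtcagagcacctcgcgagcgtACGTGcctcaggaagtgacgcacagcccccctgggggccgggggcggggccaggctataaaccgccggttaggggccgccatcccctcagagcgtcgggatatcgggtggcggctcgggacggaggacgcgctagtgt
CITED2 (chr6:139374599-139374898, minus strand): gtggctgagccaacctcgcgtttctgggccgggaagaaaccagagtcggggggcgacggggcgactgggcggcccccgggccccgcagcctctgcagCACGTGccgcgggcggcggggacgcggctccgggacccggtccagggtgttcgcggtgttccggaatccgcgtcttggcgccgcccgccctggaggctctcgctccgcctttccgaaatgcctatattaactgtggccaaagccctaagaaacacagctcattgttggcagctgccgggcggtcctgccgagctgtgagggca
ARNT (chr1:150876550-150876849, minus strand): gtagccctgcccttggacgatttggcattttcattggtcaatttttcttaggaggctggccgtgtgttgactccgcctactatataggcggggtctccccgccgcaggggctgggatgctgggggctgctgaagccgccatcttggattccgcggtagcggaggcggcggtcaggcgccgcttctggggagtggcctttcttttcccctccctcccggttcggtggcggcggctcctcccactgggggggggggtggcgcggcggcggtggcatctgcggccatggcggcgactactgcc
WSB1 (chr17:27293864-27294163, plus strand): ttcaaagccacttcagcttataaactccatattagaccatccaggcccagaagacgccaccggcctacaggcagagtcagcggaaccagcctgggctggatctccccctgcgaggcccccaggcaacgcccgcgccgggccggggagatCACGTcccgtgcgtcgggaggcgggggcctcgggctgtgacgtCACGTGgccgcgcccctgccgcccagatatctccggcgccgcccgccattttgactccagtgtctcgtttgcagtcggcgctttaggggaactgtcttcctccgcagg
EGLN1, EPAS1 and TFRC, which fell, hold 1 match each, and the EGLN1 match lies close to the annotated start. The promoters shown for CITED2 and WSB1, which rose, hold a palindromic CACGTG that counts once on each strand, giving 2 and 3 matches. Promoters 2 and 3 of CITED2 hold the core motif but no ACGTG, and the ARNT promoter holds no match.

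**Figure D4:**
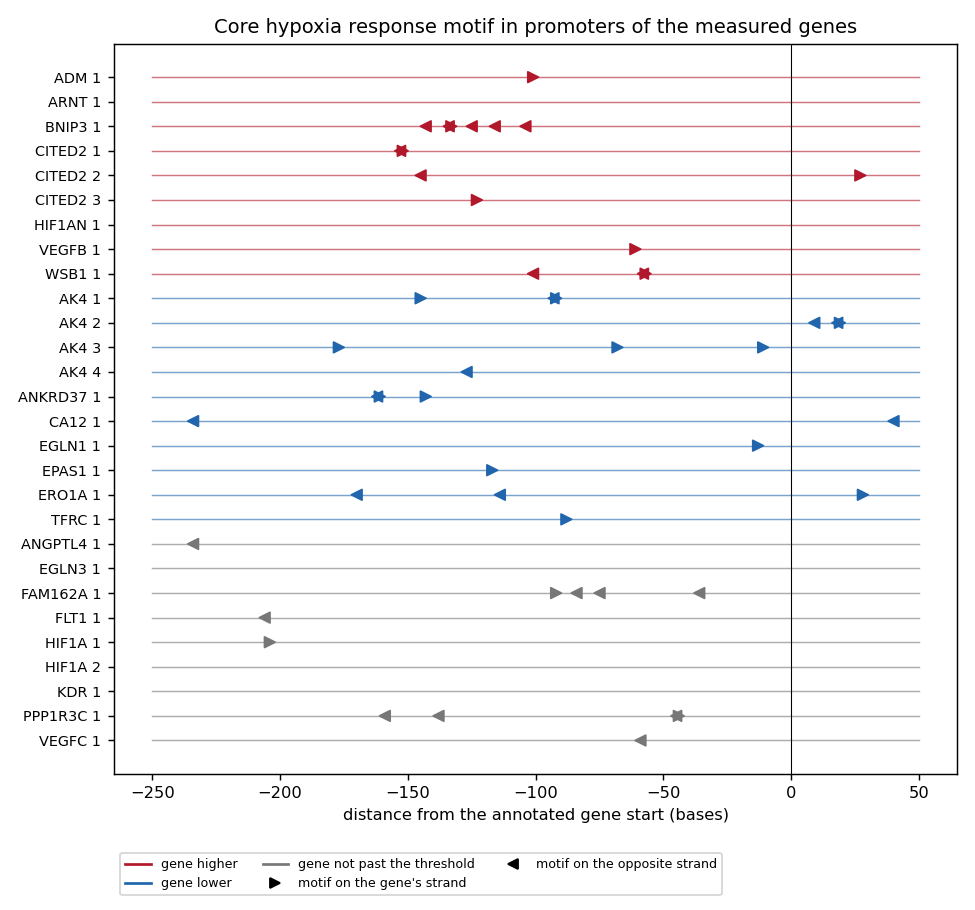
Positions of the core hypoxia response motif in the 28 promoters (rows, gene symbol and number of the promoter in the table) by distance in bases from the annotated start; arrows point right for the gene's strand and left for the opposite one, and colour gives the result of the gene's test. Matches occur in rows of all 3 colours, and ARNT, HIF1AN, EGLN3, KDR and the second HIF1A promoter have none.

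Other genes of the pathway were taken from 4 lists of 89 genes, of which 82 were measured. Of these 18 passed as higher (22%) and 29 as lower (35.4%), against 22% and 19% of all genes. Among other HIF-induced genes, mainly of glycolysis, glucose entry and collagen modification, 21 of 35 fell and 5 rose, with a median of -0.16 log2, against 19% lower and 22% higher and a median of 0.02 over all genes. The largest changes were those of DDIT4, an inhibitor of mTORC1 (-1.97 ± 0.04), the glucose transporter gene SLC2A1 (-1.13 ± 0.05) and the collagen lysyl hydroxylase gene PLOD2, which rose by 0.98 ± 0.03 log2 (SE, limma adjusted p = 2.91e-07, 3.43e-06 and 1.27e-06). DDIT4 has 1 probe set, and SLC2A1 and PLOD2 have 4 each. At a size of at least 0.5 log2, 7 of the 35 fell and 1 rose, against 4.69% and 3.52% of all genes. The difference between this list and the 29 genes, which had a median of 0.07, was not tested.

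**Figure D5:**
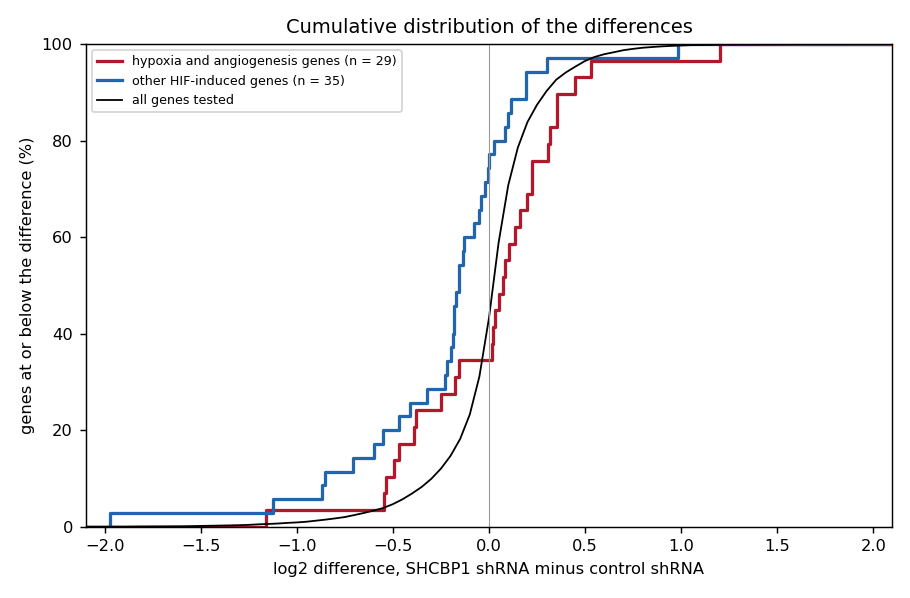
Share of genes (vertical axis, percent) at or below each log2 difference, SHCBP1 shRNA minus control shRNA (horizontal axis), for the 29 hypoxia and angiogenesis genes in red, 35 other HIF-induced genes in blue and all 18132 genes in black. The blue curve crosses 50% at about -0.16 and the red one at 0.07, and both are wider than the black curve.

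Of 22 other angiogenic ligands and receptors 3 rose and 2 fell, 22.7% in all, against 41% of all genes. EDN1, which encodes the vessel-constricting peptide endothelin, had 0.58, 0.52 and 0.58 in SHCBP1 shRNA arrays, against -0.63, -0.61 and -0.59 in control shRNA arrays, and rose by 1.17 ± 0.03 log2 (SE, limma adjusted p = 7.18e-07). THBS1, a matrix protein that restrains vessel growth, rose by 0.72 ± 0.03 (its single probe sets gave 0.08 to 1.13), and SEMA3F, a semaphorin that repels endothelial cells, fell by 0.65 ± 0.05 log2 (SE, limma adjusted p = 3.5e-06 and 3.61e-05). All 3 had groups that do not overlap, as the rule for naming them required.

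Of 13 other genes for HIF degradation and co-activation, 6 rose and 4 fell, 76.9% in all, against 41% of all genes. The rises included subunits of the ubiquitin ligase that VHL belongs to: RBX1 rose by 0.36 ± 0.03 log2 and ELOC by 0.32 ± 0.04 (SE, limma adjusted p = 7.5e-05 and 0.000377), to be set beside the 0.31 of VHL. SIAH2, a ubiquitin ligase gene whose product degrades prolyl hydroxylases, fell by 0.60 ± 0.04 log2 (SE, limma adjusted p = 2.06e-05). Of the 2 ELOC probe sets, which differed by 0.18 and 0.47, 1 passed alone. With spike-in scaling RBX1 and ELOC were below 0 (-0.07 and -0.11).

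Beside TFRC, 12 other genes of iron uptake and storage were measured, and 4 rose and 2 fell, 50% in all, against 41% of all genes. STEAP3, which reduces iron in the endosome after uptake by the transferrin receptor, fell by 0.82 ± 0.06 log2 (SE, limma adjusted p = 3.39e-05). NCOA4, which delivers ferritin to the lysosome, rose by 0.44 ± 0.04 log2, and HFE, a partner of the transferrin receptor, by 0.34 ± 0.03 (SE, limma adjusted p = 4.8e-05 and 0.000121). Spike-in scaling put NCOA4 at 0.0051 and HFE at -0.09.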

How the data were processed

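The authors' deposited table holds log2 values of 49395 probe sets on 6 arrays, made with RMA, which corrects background, quantile-normalizes arrays and summarises probes, per the submitters' processing notes. The log base is not stated and was taken as log2, the scale of RMA. The median over the arrays is 0 for all 49395 probe sets, so values were centred before deposit, a step not given in the sources used here. A filter on dim probe sets was not possible. Quantile normalization removes a shift common to all genes.

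Probe sets with 1 symbol in the platform annotation (44988, controls left out) were averaged per gene, and symbols of the 29 measured genes matched RefSeq by Entrez number. The difference of SHCBP1 shRNA over control shRNA arrays was tested with limma 3.58.1 (lmFit, eBayes) in R 4.3.3 over all 18132 genes with Benjamini-Hochberg adjustment at 0.05. Errors are limma's moderated standard errors with 3 arrays per group, whose number limits the precision. The scripts were tested on simulated data.

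The genes and lists were chosen with earlier results of these data known. The text names SHCBP1, every measured gene of the list and up to 3 genes with the largest called changes per list of other pathway genes, plus marker genes that passed and CREBBP and EP300 as background. Arrays of one group differed with an SD of 0.105 to 0.111 over genes, arrays of different groups with 0.302 to 0.309, so no array repeats another. Replicate numbers did not pair the arrays: the correlations of deviations were 0.02, -0.05 and 0.07. Alternatives were other scalings, array weights, a replicate block, robust moderation, other probe set summaries and leaving out each array.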

Additional observations from a re-analysis of the deposited data

Results flagged for a closer look

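The prolyl hydroxylase gene EGLN2 has probe sets that also name the readthrough transcript RAB4B-EGLN2 and were therefore used in no comparison. Both were higher in SHCBP1 shRNA arrays than in control shRNA arrays. The probe set with a plain _at name had 0.26, 0.24 and 0.19 in SHCBP1 shRNA arrays, against -0.47, -0.34 and -0.19 in control shRNA arrays, a difference of 0.56 ± 0.07 log2 (SE, limma adjusted p = 0.000614 over all probe sets). The one whose name ends in _a_at had 0.07, 0.07 and 0.13 in SHCBP1 shRNA arrays, against -0.07, -0.20 and -0.10 in control shRNA arrays, a difference of 0.21 ± 0.05 log2 (SE, limma adjusted p = 0.0122). The transcripts cannot be told apart on these probe sets, and only the first exceeds the spike-in shift of 0.43. Groups of 3 arrays are too small for a search for outlying arrays.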

How the results depend on the processing

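Quantile normalization repeated on the values, centring of arrays, array weights and robust moderation kept the call of all 29 genes. With the replicate block 11 genes of the list were higher and 10 lower, the addition being EGLN3 (limma adjusted p = 0.0219), and over all genes 3783 were higher and 3309 lower, so the block lost no call in the list. Leaving out 1 array at a time gave 10 to 11 genes of the list higher and 8 to 10 lower, 17 to 19 other pathway genes higher and 24 to 28 lower, and 3536 to 3699 of all genes higher and 3119 to 3232 lower. Spike-in scaling gave 1 higher and 23 lower in the list, 3 and 73 among other pathway genes, and 441 and 16268 among all genes. It turned to below 0 the differences of HIF1A (-0.41), VHL (-0.13), HIF1AN (-0.23), VEGFB (-0.12), VEGFC (-0.42), ADM (-0.082), ANGPTL4 (-0.33), STC1 (-0.36), FLT1 (-0.38), KDR (-0.40), BNIP3 (-0.27), BNIP3L (-0.21), FAM162A (-0.30), HILPDA (-0.21), PPP1R3C (-0.35), WSB1 (-0.079), ELOC (-0.11), RBX1 (-0.073) and HFE (-0.092), by its construction as a common shift. With only plain _at probe sets, which measure 14 genes of the list, 3 were higher and 3 lower, with 3 and 7 among 32 other pathway genes and 984 and 898 among 8324 genes. HIF1AN, CA12 and NRP1 lost their calls there, and the cause was not tested. Without _s_at and _x_at probe sets, 10 of 27 genes of the list were higher and 9 lower. The counts were 12 and 22 among 69 other pathway genes and 3389 and 2926 among 16701 genes. HIF1AN, on the same probe set, kept its call in that fit (0.14, limma adjusted p = 0.0376). So did CA12 (-0.19, limma adjusted p = 0.0174) and NRP1 (0.48, limma adjusted p = 8.98e-05). Asking for at least 0.5 log2 gave 2 higher and 3 lower in the list, 3 and 10 among other pathway genes and 638 and 851 among all genes. Among called genes, single probe sets had the opposite sign to their gene for EPAS1 (0.034), NRP1 (-0.064) and WSB1 (-0.033 and -0.0054). Among genes that missed the threshold this held for HIF1A, FLT1 and KDR, none of whose probe sets passed, and for EGLN3 (0.27, past the threshold), and the cause was not tested. EGLN3 passed as lower when _s_at and _x_at probe sets were dropped (-0.40, limma adjusted p = 0.00334), with the median of its probe sets, with plain _at probe sets, with spike-in scaling, without SHCBP1 shRNA replicate 3 and without control replicate 1.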
